A study of Mus musculus with 2 samples.

Results

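Granzymes A, B, C, D, E, F, G and K and perforin (Gzma, Gzmb, Gzmc, Gzmd, Gzme, Gzmf, Gzmg, Gzmk and Prf1) were read as unique molecular identifiers (UMIs, each standing for 1 captured transcript) in single cells of mouse lung. They were chosen by symbol, and all 9 were found among the 55401 genes of the count matrix, of which 26909 had a UMI in a cell that was kept. The cells were live CD45+ leukocytes sorted from the lungs of mice killed 7 weeks after their first dose of urethane, a carcinogen that gives lung adenomas. There was 1 WT sample and 1 Siah1a/2 KO sample (Siah1a and Siah2 are ubiquitin ligases), and both came from mice given urethane. The labels do not give the knockout alleles, the age, the strain or how many lungs went into a sample. The matrix joins both samples and tells them apart by a barcode suffix that is not tied to a genotype, so its barcodes are called library 1 and library 2 and no genotype is assigned to either. With 1 library of each kind there is no replicate, no test was possible, and every interval covers counting error only.

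Granzymes are serine proteases that cytotoxic lymphocytes store in granules and release onto a target cell. Perforin, encoded by Prf1, forms the pore through which granzymes enter that cell. Granzyme B cleaves after aspartate and can activate caspases, granzymes A and K cleave after basic residues, and granzymes C to G are close relatives of granzyme B that lie beside it in the mouse genome. Natural killer (NK) cells and CD8 T cells are the main users of this machinery, and activated regulatory T cells are also known to make granzyme B.

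The genes lie in 3 places. On mouse build GRCm38 (mm10), Gzmb (14:56258838-56262260), Gzmc (14:56231441-56234656), Gzmf (14:56205263-56211417), Gzmg (14:56156582-56159579), Gzmd (14:56129556-56132608) and Gzme (14:56117626-56120625) follow each other on the minus strand of chromosome 14. Gzma (13:113093825-113100981) and Gzmk (13:113171608-113225908) lie on the minus strand of chromosome 13, and Prf1 (10:61297833-61304680) lies on the plus strand of chromosome 10. In what follows Gzmd to Gzmg shared cells in part, with Gzmc in NK cells, and Gzmb of the same cluster was far more widespread. The bases just upstream of these 6 starts are therefore shown. Each window has 195 bases and ends 16 bases before the RefSeq transcript start (RefSeq promoter table, GRCm38.p6, none overlapping an annotated exon). Capitals mark the Runx motif TGTGGT on either strand (ACCACA on the other), the cAMP response element TGACGTCA and the AP-1 motif TGANTCA.
Gzmb: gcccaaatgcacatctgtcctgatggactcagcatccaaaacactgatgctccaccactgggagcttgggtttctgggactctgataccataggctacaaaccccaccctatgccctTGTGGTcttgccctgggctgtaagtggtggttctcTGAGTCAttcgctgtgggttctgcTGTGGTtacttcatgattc
Gzmc: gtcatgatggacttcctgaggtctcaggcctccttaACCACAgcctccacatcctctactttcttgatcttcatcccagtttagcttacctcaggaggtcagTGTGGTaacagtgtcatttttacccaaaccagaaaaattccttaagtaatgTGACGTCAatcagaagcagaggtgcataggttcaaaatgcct
Gzmd: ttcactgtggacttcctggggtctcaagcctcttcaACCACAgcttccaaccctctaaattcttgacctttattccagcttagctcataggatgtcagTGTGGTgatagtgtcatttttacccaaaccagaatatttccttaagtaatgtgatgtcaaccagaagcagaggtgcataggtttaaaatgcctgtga
Gzme: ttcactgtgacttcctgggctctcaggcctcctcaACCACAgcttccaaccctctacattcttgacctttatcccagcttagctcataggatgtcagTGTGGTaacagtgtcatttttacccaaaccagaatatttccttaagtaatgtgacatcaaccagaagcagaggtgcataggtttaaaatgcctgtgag
Gzmf: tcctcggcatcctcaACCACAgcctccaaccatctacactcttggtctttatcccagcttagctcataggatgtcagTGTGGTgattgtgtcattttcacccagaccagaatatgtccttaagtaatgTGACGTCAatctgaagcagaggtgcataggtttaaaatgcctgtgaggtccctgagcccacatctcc
Gzmg: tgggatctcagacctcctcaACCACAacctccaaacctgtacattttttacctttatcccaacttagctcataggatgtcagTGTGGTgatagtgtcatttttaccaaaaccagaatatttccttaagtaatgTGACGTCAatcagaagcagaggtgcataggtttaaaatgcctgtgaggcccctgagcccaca
Read on the minus strand, these windows span chr14:56262350-56262544 for Gzmb, chr14:56234673-56234867 for Gzmc, chr14:56132609-56132803 for Gzmd, chr14:56120641-56120835 for Gzme, chr14:56211423-56211617 for Gzmf and chr14:56159595-56159789 for Gzmg. The windows of Gzmd and Gzme were 94.4% identical, those of Gzmc and Gzme 85.6% and those of Gzmf and Gzmg 85.0%. No other member's window was more than 52.4% identical to that of Gzmb. The windows follow RefSeq starts and are not placed alike to the gene ends given above. The Gzmb gene ends at 56262260 and its window begins at 56262350, while for Gzmd these are 56132608 and 56132609. What part this placing has in the identity to Gzmb was not tested. Each of the 5 windows from Gzmc to Gzmg held the Runx motif once on each strand, and Gzmb held it 2 times on the same strand. Among 32851 windows of the same length over all genes, 11.1% held TGTGGT on either strand. TGACGTCA was in the windows of Gzmc, Gzmf and Gzmg and in 1.33% of all windows. At the aligned place Gzmd differed from it by C4T and Gzme by G5A, with positions counted from 1 at the 5′ end of the motif. TGANTCA was in the window of Gzmb among the 6 shown and in 5.42% of all windows. The T-box motif AGGTGTGA was in none of the members' windows and in 0.895% of all windows. These matches are letters in a window, and whether a factor binds there was not measured.

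Library 1 kept 8066 cells with a median of 8661 UMIs and library 2 kept 6113 cells with a median of 7875 UMIs. The 9 genes took 413902 UMIs, or 0.482% of library 1, and 360939 UMIs, or 0.611% of library 2. The libraries shared 11 barcode sequences. C1qa, a macrophage transcript, had a UMI in 42.8% of the cells of library 1 and in 21.6% of those of library 2. Siah1a was at 8.48 UMIs per 1000000 UMIs (CPM) in library 1 and 12.7 in library 2, and Siah2 at 17.9 and 27.5. These values were not used to name a library, since a 3′ tag can lie outside the mutated part.

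Cells were sorted into gates by marker UMIs, none of them a granzyme or perforin. The NK gate required 2 or more UMIs of the NK receptors Ncr1 and Klrb1c together and at most 1 Cd3 UMI, and it held 1107 and 1020 cells of libraries 1 and 2 (median 10198 and 8902 UMIs). The CD8 T gate required 2 or more Cd3 and 2 or more Cd8 UMIs and held 2352 and 2065 cells (8008 and 7186 UMIs), and the regulatory T gate required Cd3 and Foxp3 and held 393 and 231 cells (6676 and 6324 UMIs). In all, 13 gates had 50 or more cells in each library and are described. Of 8 NK markers left out of the gate, 6 were highest in the NK gate in both libraries (Eomes, Klre1, Klrd1, Txk, Klra8 and Il2rb), while Tyrobp was highest in neutrophils and Fcer1g in mast cells. All 6 regulatory T markers were highest in the regulatory T gate. Summed myeloid transcripts stood at 735 and 289 CPM in the NK gate and at 3612 and 5825 CPM in the regulatory T gate. In the macrophage gate they stood at 35465 and 37904 CPM. This sum includes Cd74 and was 18337 and 17531 CPM in the B gate, so it is not specific to myeloid cells. A sum of 6 macrophage markers was 190 and 89.7 CPM in the NK gate and 680 and 609 CPM in the regulatory T gate. In the macrophage gate that sum was 10806.5 and 10812.6 CPM.

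Part of each T cell gate carried NK receptor transcripts. Cells with 2 or more UMIs of Ncr1 and Klrb1c made up 104 of 172 and 70 of 126 cells of the gamma-delta T gate, 25 of 393 and 5 of 231 of the regulatory T gate, and 109 of 2352 and 88 of 2065 of the CD8 T gate. In the CD8 T gate these cells were deeper, with a median of 17092 and 14835 UMIs against 7837 and 7086 in the other cells, and held as many Cd3 UMIs (medians 36 and 37 against 36 and 35). They held 55.9% and 73.5% of the Gzmc UMIs of the CD8 T gate but 9.49% and 7.92% of its Gzmb UMIs. In the gamma-delta T gate they held 99.8% and 99.3% of the Gzmc UMIs. Whether they are T cells with NK receptors, NK cells with Cd3 transcripts, or 2 cells under 1 barcode was not tested. Values of T cell gates are therefore given with and without them where they matter.

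The NK gate held 48.1% of all UMIs of the 9 genes in library 1 and 56.8% in library 2, although it held 13.7% and 16.7% of the cells. Many NK-gated cells had 1 Cd3 UMI, and without them the gate held 31.4% and 42.1%. The CD8 T gate held 24.4% and 24.6%. The members divided by gate. Gzma was the most NK-centred, with 70.1% and 78.5% of its UMIs in the NK gate, and Gzmc followed with 62.4% and 74.3%. Prf1 had 46.1% and 54.3% there, and Gzmb had 32.6% and 34.7%, beside 35.2% and 40.4% in the CD8 T gate. Gzmk was almost absent from NK cells, with 2.30% and 0.969% of its UMIs there and 73.5% and 84.4% in the CD8 T gate.

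In NK cells Gzmc was the member with most UMIs, at 5970 CPM in library 1 (95% Poisson interval 5927 to 6013) and 7074 CPM in library 2 (7022 to 7125). The libraries count 3′ tags, so a transcript's length does not add UMIs, but capture can differ between genes and levels of different genes are set side by side only as UMIs. Gzma stood at 4192 CPM (4156 to 4228) and 5140 CPM (5096 to 5184), and Gzmb at 2622 CPM (2593 to 2650) and 3361 CPM (3325 to 3396). Prf1 stood at 1249 CPM (1230 to 1269) and 1412 CPM (1389 to 1435). Among the 13 gates these 4 genes were highest in the NK gate in both libraries, with no overlap of intervals. Gzmf (915 and 1232 CPM), Gzmd (697 and 1031 CPM) and Gzme (280 and 424 CPM) were lower in NK cells, Gzmg was at 35.4 and 109 CPM, and Gzmk at 2.72 and 1.54 CPM.

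**Figure D1:**
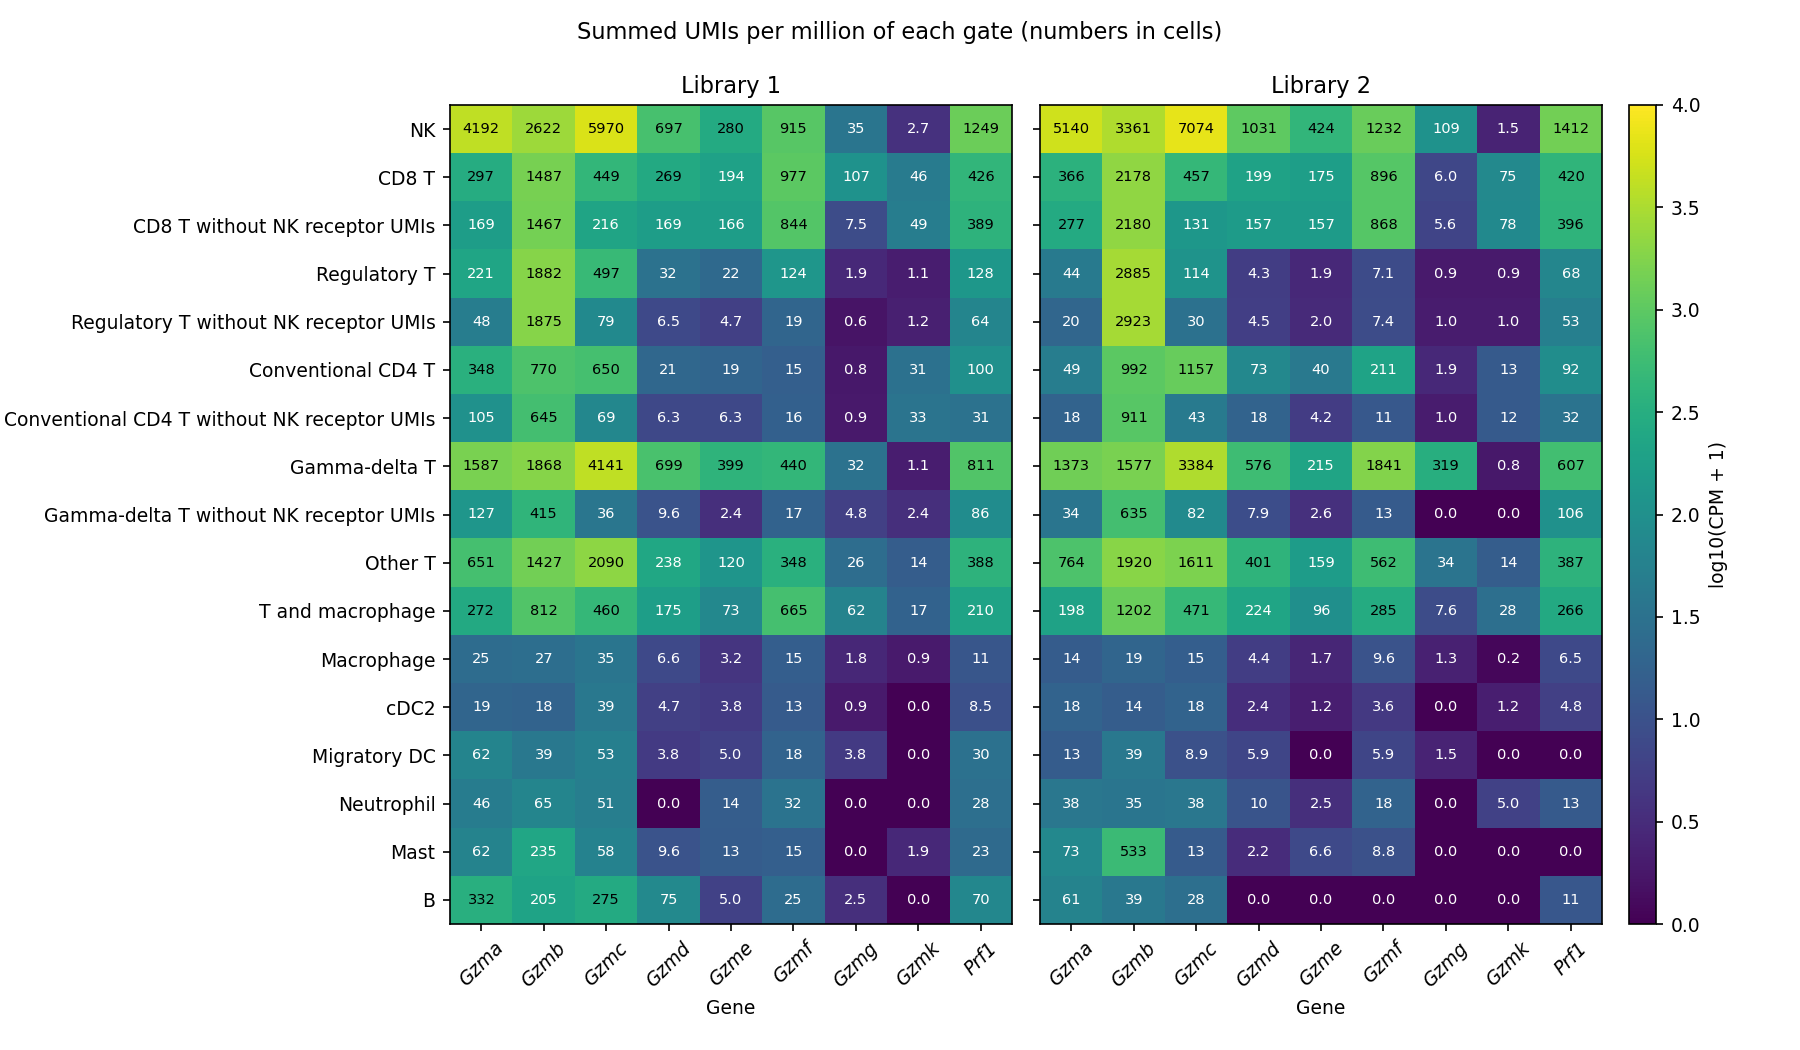
Summed UMIs in CPM of each marker gate (rows) for the 9 genes (columns) in library 1 (left) and library 2 (right), coloured by log10 of CPM plus 1, with the CPM printed in each field. Among the rows with all cells of a gate, the NK row is highest for Gzma, Gzmb, Gzmc and Prf1 and the CD8 T row for Gzmk. The rows without NK receptor UMIs show how far Gzmc falls in the gamma-delta T gate (4141 to 36.0 CPM in library 1).

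Gzmb led in CD8 T cells, at 1487 CPM (1471 to 1502) in library 1 and 2178 CPM (2157 to 2200) in library 2. Gzmf came next at 977 and 896 CPM, with intervals that do not overlap between the libraries (964 to 989 and 883 to 910). Gzmc was at 449 and 457 CPM, Prf1 at 426 and 420 CPM, Gzma at 297 and 366 CPM, Gzmd at 269 and 199 CPM and Gzme at 194 and 175 CPM. Without the cells that carried NK receptor UMIs, Gzmb (1467 and 2180 CPM), Prf1 (389 and 396 CPM) and Gzmf (844 and 868 CPM) stayed close to these values. Gzmc dropped to 216 and 131 CPM, and Gzma to 169 and 277 CPM. Gzmk, at 45.6 CPM (43.0 to 48.4) and 74.9 CPM (71.0 to 78.9), was highest in CD8 T cells among the 13 gates in both libraries. The next gate for Gzmk was conventional CD4 T cells in library 1, at 30.6 CPM, and cells with both T and macrophage transcripts in library 2, at 28.3 CPM.

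Gzmb was the leading member in regulatory T cells. It took 64.7% and 92.3% of the gate's member UMIs and stood at 1882 CPM (1837 to 1927) and 2885 CPM (2813 to 2958), second to NK cells among the 13 gates in both libraries, and in library 1 its interval overlapped that of the gamma-delta T gate (1868 CPM). It had a UMI in 82.2% and 87.4% of regulatory T cells thinned to 3000 UMIs, that is, with each cell drawn down at random to the same depth. Gzmc was at 497 and 115 CPM and Gzma at 221 and 43.7 CPM, and these fell to 78.9 and 30.2 CPM and to 48.0 and 19.8 CPM without cells with NK receptor UMIs. Prf1 was at 128 and 67.9 CPM (64.2 and 52.9 CPM without those cells), with a UMI in 18.4% and 10.7% of thinned cells. Of thinned regulatory T cells with Gzmb, 80.0% and 88.3% had no Prf1 UMI, beside 40.2% and 40.8% of CD8 T cells and 10.7% and 9.91% of NK cells. Gzmb was the member with most UMIs in 90.9% and 98.2% of regulatory T cells that held 10 or more UMIs of the set. Cycling regulatory T cells (68 and 31, with 2 or more UMIs of the proliferation genes Mki67 and Top2a) had Gzmb at 1472 and 1625 CPM, and the others at 2054 and 3322 CPM.

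Conventional CD4 T cells had Gzmb at 770 and 992 CPM, the lowest of the T cell gates in both libraries with all cells counted. The gamma-delta T gate had Gzmc at 4141 and 3384 CPM, Gzma at 1587 and 1373 CPM and Prf1 at 811 and 607 CPM, the levels nearest to those of NK cells. Without cells with NK receptor UMIs it kept 68 and 56 cells, and Gzmc was then at 36.0 and 82.0 CPM, Gzma at 127 and 34.4 CPM, Prf1 at 86.4 and 106 CPM and Gzmb at 415 and 635 CPM. With all cells, its 8 NK markers summed to 6274 and 5940 CPM, beside 9043 and 8652 CPM in the NK gate and 2663 and 2577 CPM in the CD8 T gate. The order of the gates for Gzma, Gzmc and Prf1 below the NK gate thus rests on those cells.

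Mast cells had Gzmb apart from the rest of the set. It stood at 235 CPM (195 to 281) in library 1 and 533 CPM (468 to 605) in library 2, in 76 and 69 cells, with a UMI in 37.5% and 49.2% of thinned cells. Prf1 in the same cells was at 23.1 CPM in library 1, and 0 UMIs were found in library 2, which allows up to 6.63 CPM. Such limits cover counting error only, as do the intervals. Macrophages, which are not known for granzymes, were taken as the background. Whether their UMIs came from free RNA, another cell under the same barcode or the macrophages themselves was not tested. A Gzmb UMI was found in 6.53% and 5.11% of thinned macrophages (median 11150 and 11430.5 UMIs before thinning), Gzma in 5.85% and 4.87%, Gzmc in 9.39% and 5.11%, Gzmf in 4.90% and 3.89% and Prf1 in 2.18% and 2.68%. The mast cell share for Gzmb was above this level and those for Gzma (6.25% and 6.78%) were near it. In B cells of library 1, 124 of 133 Gzma UMIs came from 1 cell. In type 2 conventional dendritic cells, migratory dendritic cells and neutrophils no member passed 64.8 CPM in either library.

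The members differed in how many cells carried them. In thinned NK cells Gzmb had a UMI in 90.5% (88.6 to 92.2) and 90.8% (88.8 to 92.5), Prf1 in 88.3% and 88.4% and Gzma in 78.2% and 80.7%. Gzmc, the member with most UMIs, was found in 56.5% and 56.7%. Gzmd was found in 14.6% and 16.1%, Gzme in 11.4% and 13.9%, Gzmf in 11.5% and 8.39%, and Gzmg in 1.75% and 2.22%. A median NK cell held 27 and 30 Gzma UMIs, 17 and 19 Gzmb UMIs, 10 Prf1 UMIs in either library, 2 Gzmc UMIs and none of Gzmd to Gzmg.

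The UMIs of Gzmd to Gzmg were packed into few cells. Of the Gzmd UMIs of the NK gate, 50% lay in 20 cells of library 1 and 19 of library 2. For Gzme these were 20 and 21 cells, for Gzmf 16 and 11, and for Gzmg 4 and 3. For Gzma they were 161 and 145 cells, for Gzmb 159 and 137, for Prf1 213 and 179 and for Gzmc 81 and 73. The highest NK cell of library 2 gave 1403 Gzmf, 216 Gzmg, 386 Gzmc and 145 Gzmd UMIs, and the 9 genes were 15.97% of its 14882 UMIs. The highest of library 1 gave 844 Gzmd and 883 Gzmc UMIs and 0 Gzmf UMIs, and the set was 11.6% of its 19839 UMIs. Unthinned, 836 of 1107 and 870 of 1020 NK cells had no Gzmf UMI, 197 and 74 had 1 or 2, 26 and 28 had at least 100 but under 300, and 12 and 13 had at least 300 but under 1000. Between these, 14 and 17 cells had 3 to 9 UMIs, 7 and 12 had 10 to 29, and 15 and 5 had 30 to under 100. Most NK cells had no Gzmf UMI, and most of the others had either 1 or 2 UMIs or at least 100. In macrophages, 116 of 765 and 41 of 426 cells also had 1 or 2 Gzmf UMIs.

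**Figure D2:**
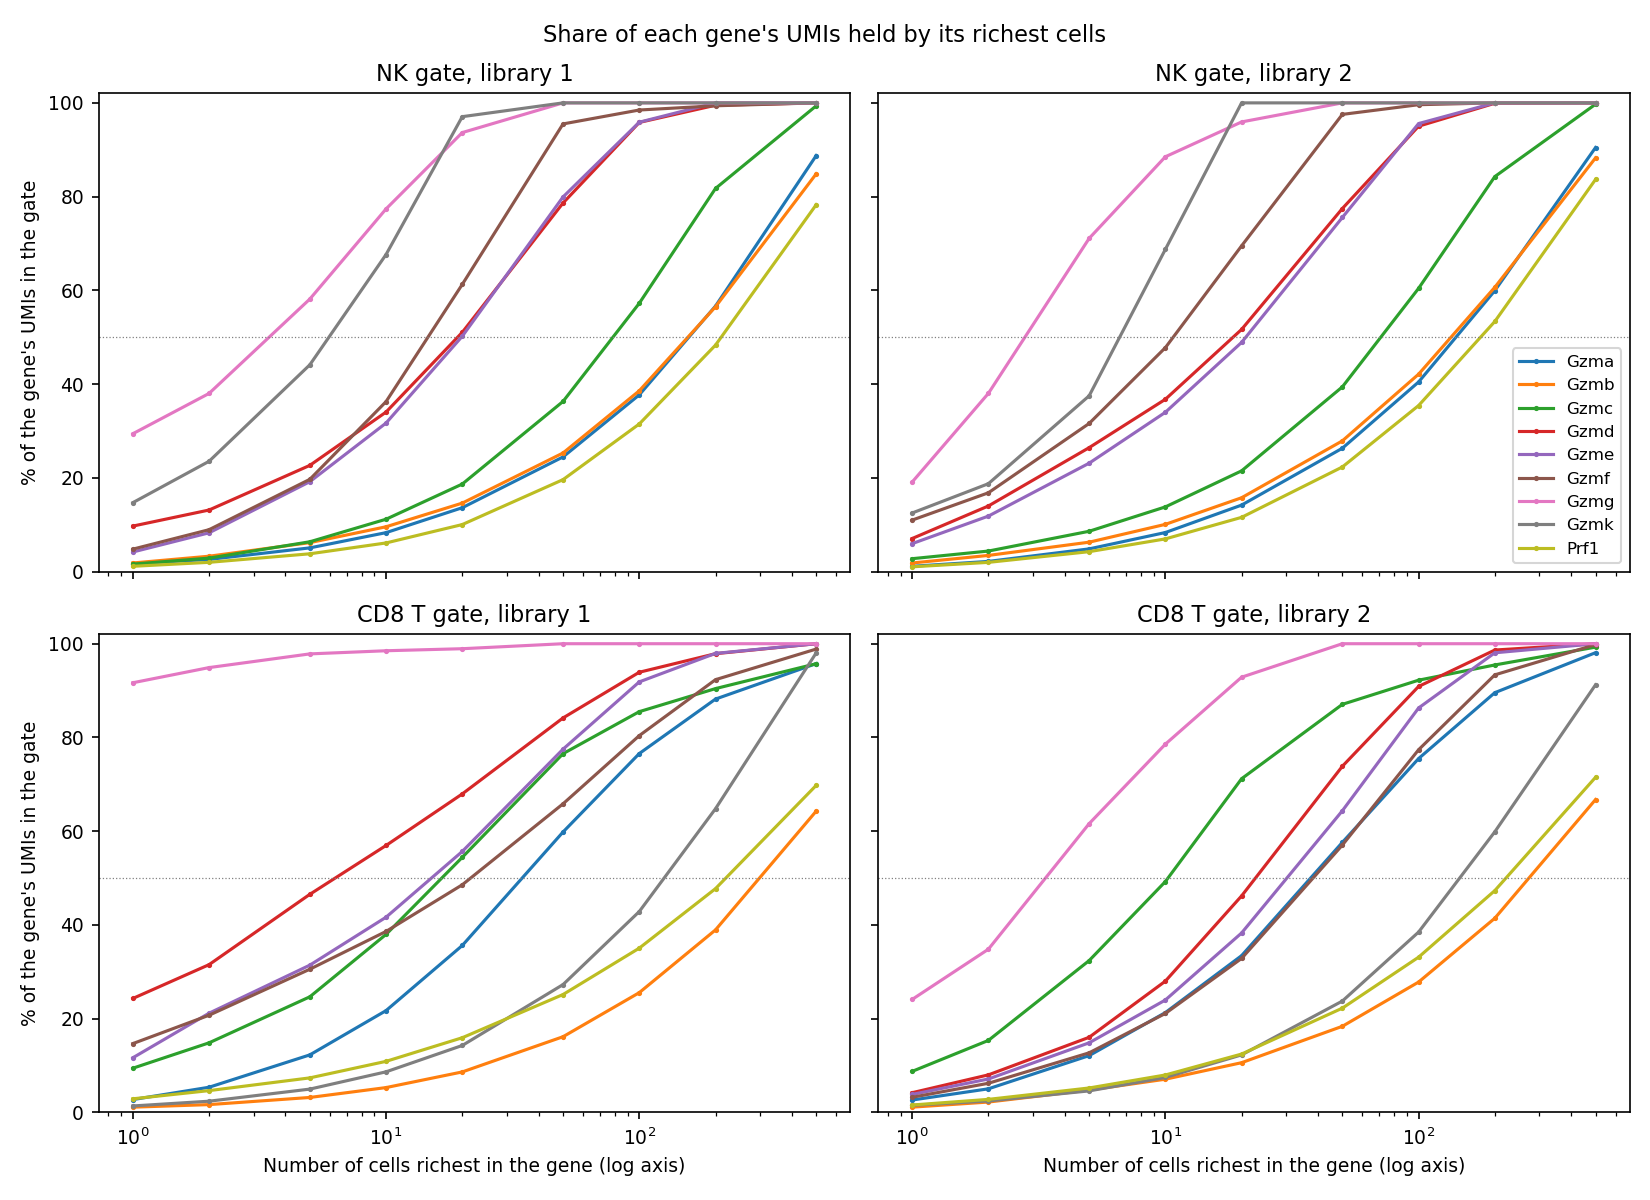
Share of each gene's UMIs in a gate (vertical axis, %) held by the given number of cells richest in that gene (horizontal axis, log scale), for NK cells (top) and CD8 T cells (bottom) of library 1 (left) and library 2 (right), with the dotted line at 50%. Gzmd to Gzmg reach 50% within 21 NK cells and Gzma, Gzmb and Prf1 only after 137 or more, and a single CD8 T cell of library 1 holds most Gzmg UMIs of its gate.

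In CD8 T cells 50% of the Gzmb UMIs lay in 310 and 282 cells and 50% of the Gzmf UMIs in 22 and 40. Gzmf was nonetheless broader there than in NK cells, with a UMI in 22.0% and 18.5% of thinned cells. For Gzmk, 126 and 154 cells held 50%, and the highest cell had 15 and 21 UMIs, so Gzmk was low in every cell that held it. No Gzmk UMI was found in 1831 of 2352 and 1443 of 2065 CD8 T cells. A single cell of library 1 held 2322 of the 2533 Gzmg UMIs of the CD8 T gate, together with 3410 Gzmf, 1554 Gzmd and 1007 Gzmc UMIs. That cell had 64907 UMIs in all, 2 Cd3 UMIs, 2 Cd8 UMIs and 36 UMIs of Ncr1 and Klrb1c. The next CD8 T cell, with 30890 UMIs, had 1406 Gzmf, 433 Gzmd and 438 Gzme UMIs with 150 Cd3 and 44 Cd8 UMIs and no NK receptor UMI, so high Gzmd to Gzmf was also seen in a cell with clear T cell transcripts.

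Gzmd to Gzmg shared cells in part, and the pair Gzmd and Gzme did so often. Any of these genes was found in 255 and 206 thinned NK cells. Of those cells, 48 in either library held 3 or more of the genes, and 11 and 12 held all. In the CD8 T gate 623 and 475 thinned cells held any, 94 and 86 held 3 or more, and 8 and 10 held all. Of thinned NK cells with a Gzmd UMI, 62.0% and 76.1% also had Gzme, beside 2.70% and 1.93% of cells without Gzmd. Of NK cells with Gzme, 79.7% and 88.3% had Gzmd. Joint detection of Gzmd and Gzme was 5.46 and 5.49 times the product of the single shares in NK cells and 7.32 and 7.87 times in CD8 T cells. The correlation of their levels over single cells was 0.81 and 0.88 in NK cells (1083 and 989 thinned cells) and 0.80 and 0.82 in CD8 T cells (2281 and 2020). Cells of a library share its depth and free RNA, so these correlations are descriptions. With 3 or more UMIs of a gene required, at least 1 of Gzmd to Gzmg was found in 12.8% and 14.3% of NK cells, 13.6% and 14.8% of CD8 T cells, and 0.557% of regulatory T cells of library 1. It was found in 0 of 206 regulatory T cells of library 2, which allows a share of up to 1.46%, and in 0 of 735 and 0 of 411 macrophages, which allow up to 0.408% and 0.730%.

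The partners of Gzmd differed by gate. In NK cells Gzmd came with Gzmc, which had a UMI in 90.5% and 95.6% of Gzmd cells and in 50.7% and 49.3% of the others. In CD8 T cells Gzmc was found in 50.5% and 37.0% of Gzmd cells, and in 47.7% and 32.3% when cells with NK receptor UMIs were left out. Gzmf was found in 61.6% and 60.2% of the Gzmd cells of the CD8 T gate and in 32.3% and 34.0% of those of the NK gate. With 10 or more UMIs required of both genes and no thinning, 99.1% and 97.6% of Gzmd cells had Gzmc in the NK gate, against 37.7% and 18.8% in the CD8 T gate without NK receptor UMIs. At that level 98.3% and 100% of Gzmf cells of the NK gate also had Gzmc, and 18.3% and 11.6% of those CD8 T cells did. Among cells with 10 or more Gzmf UMIs, most thus lacked high Gzmc in the CD8 T gate without NK receptor UMIs. In the NK gate of these libraries nearly all such cells had it.

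Gzma and Gzmc ran apart in NK cells. Gzmc was found in 50.9% and 52.4% of NK cells with Gzma and in 76.7% and 74.9% of those without, and r over cells was -0.40 and -0.38. Gzma led the set in 48.0% and 50% of NK cells with 10 or more member UMIs, Gzmc in 30.6% and 30.4%, and Gzmb in 14.99% and 15.5%. Among CD8 T cells Gzmb led in 69.1% and 74.1% and Gzmf in 13.7% and 11.3%. Gzma, Gzmb and Prf1 were found together in 65.3% and 69.8% of thinned NK cells, 9.95% and 10.3% of CD8 T cells and 4.74% and 2.43% of regulatory T cells.

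Gzmk in CD8 T cells came with Gzmb and apart from Gzmf. Of thinned CD8 T cells with Gzmk, 93.0% and 90.3% had Gzmb, beside 73.9% and 80.6% of those without. Gzma was found in 35.1% and 31.8% of Gzmk cells and in 16.8% and 17.2% of the others. Gzmf was found in 14.8% and 13.9% of Gzmk cells and in 23.0% and 19.4% of the others. At least 1 member had a UMI in 99.5% and 99.2% of thinned NK cells, 91.2% and 92.0% of CD8 T cells and, as background, 28.7% and 21.4% of macrophages.

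**Figure D3:**
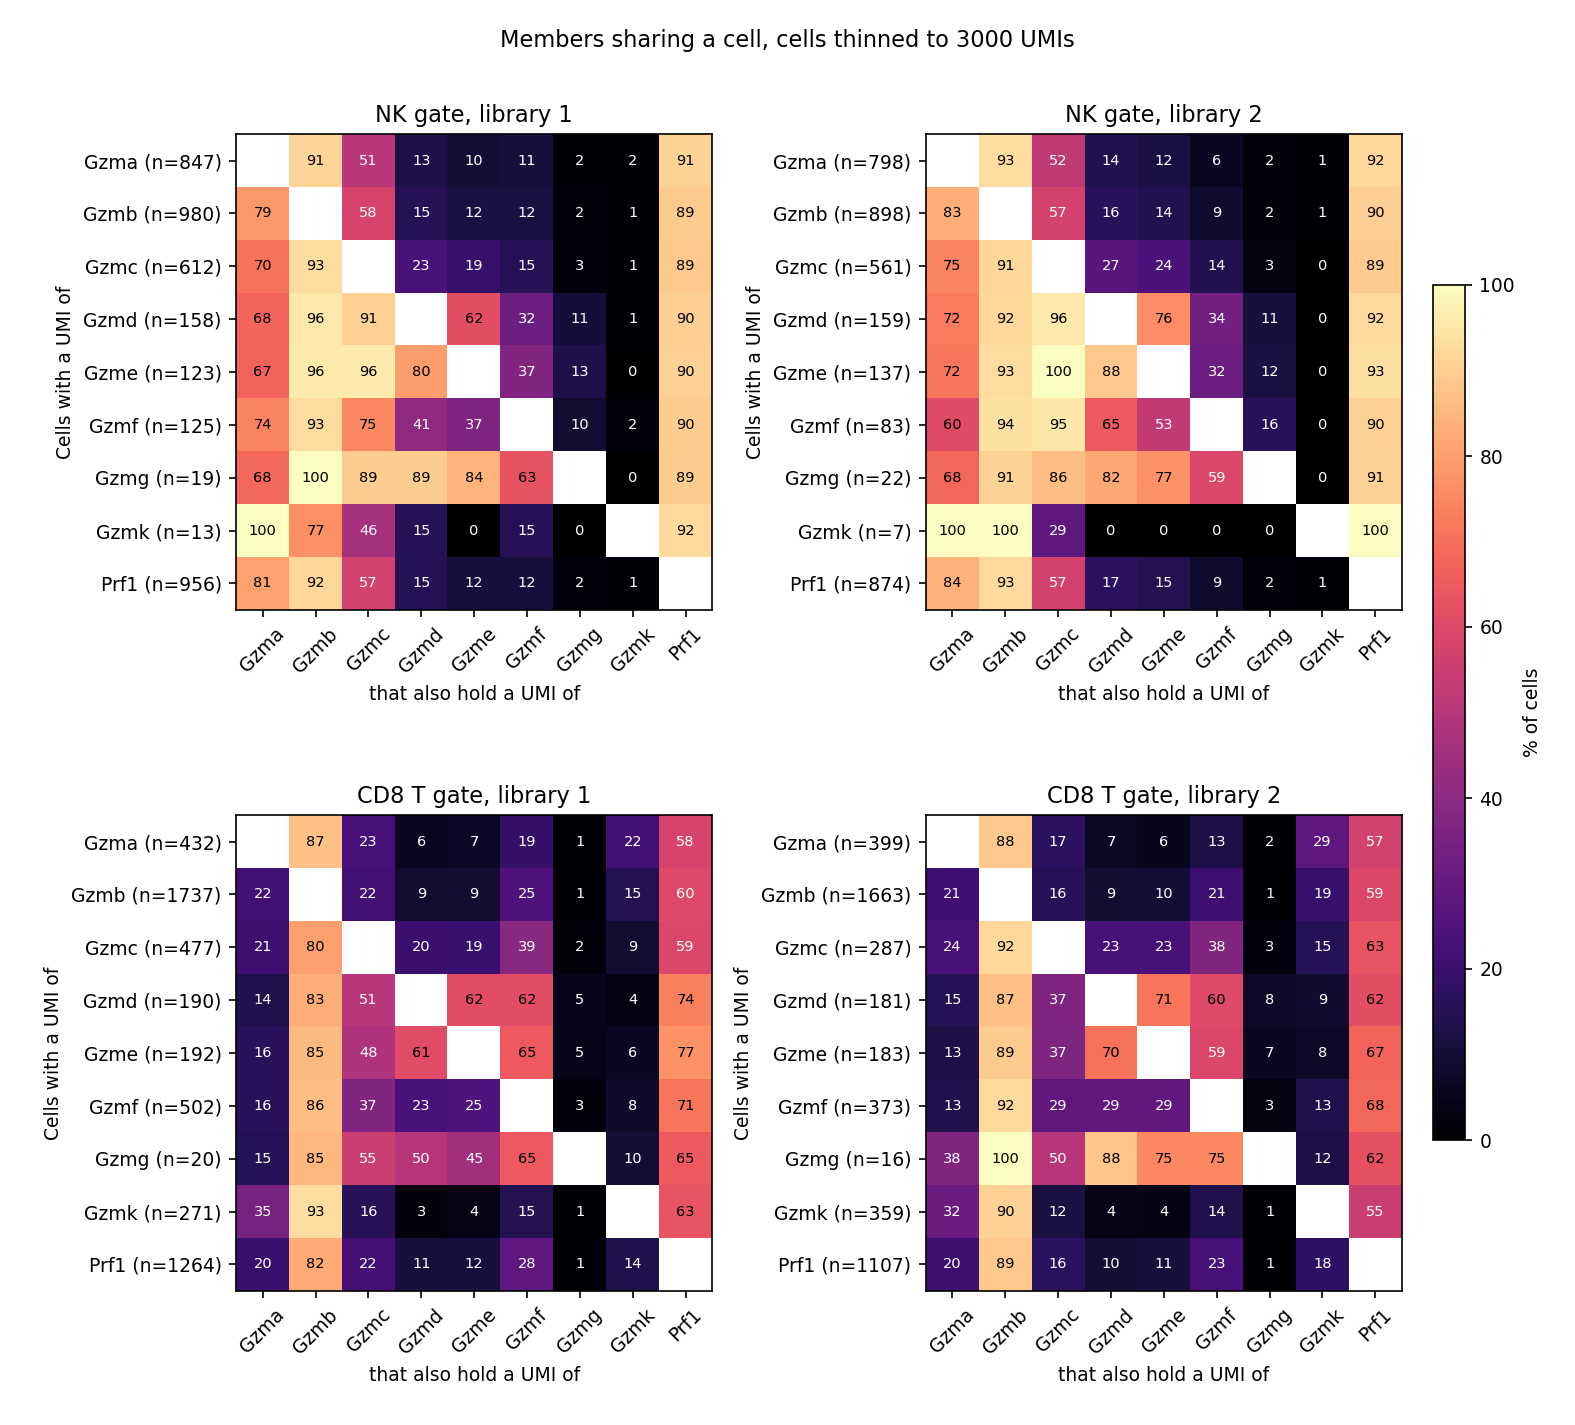
Percent of cells with a UMI of the row gene that also hold a UMI of the column gene, in cells thinned to 3000 UMIs, for NK cells (top) and CD8 T cells (bottom) of library 1 (left) and library 2 (right), with the number of cells behind each row. Gzmc is in most NK cells that hold Gzmd (90.5% and 95.6%) and in fewer CD8 T cells that do (50.5% and 37.0%), while Gzmb is common in every row.

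Set directly against CD8 T cells of the same library, NK cells had more Gzma, by 3.82 on the log2 scale in library 1 (3.78 to 3.85) and 3.81 in library 2 (3.78 to 3.85), and more Gzmc, by 3.73 (3.70 to 3.76) and 3.95 (3.92 to 3.99). Prf1 was higher by 1.55 and 1.75, Gzmd by 1.37 and 2.37, and Gzme by 0.53 and 1.28. Gzmb was higher by 0.82 and 0.63, short of 2 times, and Gzmf differed by -0.09 and 0.46. Gzmk was lower in NK cells by a log2 ratio of -4.05 and -5.56. Past 2 times, 4 members were higher and 2 lower in NK cells of library 1, and 6 were higher and 1 lower in library 2. Of all genes with 50 or more UMIs in both sums together, 4.57% were higher and 6.91% lower past 2 times in library 1, and 4.53% and 8.2% in library 2. The member that changed side was Gzmg, at -1.59 in library 1 and 4.17 in library 2. Once CD8 T cells with NK receptor UMIs were left out, Gzmg was at 2.23 in library 1, Gzmc at 4.79 and 5.75, Gzma at 4.63 and 4.21, Gzmd at 2.04 and 2.71 and Gzmf at 0.12 and 0.51, while Gzmb was at 0.84 and 0.62 and Prf1 at 1.68 and 1.83.

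NK cells are not uniform. They were split in 8 ways, by marker UMIs or by cycling, and these did not all divide the set alike. Itga1 encodes an integrin chain of tissue-resident NK cells and type 1 innate lymphoid cells. NK-gated cells with an Itga1 UMI (498 and 385 cells, median 12853 and 12308 UMIs) had Gzmc at 9155 and 11318 CPM, and those without (609 and 635 cells, median 7932 and 7162 UMIs) at 2036 and 2893 CPM, which is 2.17 and 1.97 on the log2 scale. Gzmd was at 1169 and 1873 CPM against 113 and 201 CPM, and Gzmf at 1388 and 2198 CPM against 331 and 280 CPM. Gzma ran the other way, at 3339 and 3850 CPM against 5246 and 6410 CPM, and Prf1 differed by a log2 ratio of 0.09 and 0.05. At equal depth Gzmc had a UMI in 77.5% and 82.6% of Itga1 cells and in 38.9% and 40.3% of the rest. Without the 10 richest cells of each side, the log2 ratios of Gzmc were 2.65 and 2.19. Those of Gzmd went from 3.37 and 3.22 to 5.14 and 4.16. Among cells without Itga1, 50% of the Gzmd UMIs lay in 3 and 6 cells, against 18 and 16 among Itga1 cells. For Gzmc these were 17 and 24 against 66 and 53 cells. Leaving out 10 cells thus takes more from the side without Itga1. That pushes the ratios up by construction, so no conclusion is drawn from the rise.

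S1pr5, a receptor for the lipid sphingosine 1-phosphate that mature NK cells use to leave tissues, gave the opposite picture to Itga1 in few cells. The 49 and 42 NK-gated cells with an S1pr5 UMI had Gzma at 9857 and 8917 CPM, and 100% and 89.5% of them had a Gzma UMI when thinned. Their Gzmc was at 1194 and 2099 CPM, with 50% of it in 2 cells of either library, and Gzmd was at 14.0 and 44.9 CPM and Gzmf at 16.4 and 29.04 CPM. The log2 ratio over cells without S1pr5 was 1.30 and 0.84 for Gzma and -2.36 and -1.79 for Gzmc. Prf1 was at 1551 and 1486 CPM, with a log2 ratio of 0.33 and 0.08. Without the 10 richest cells of each side Gzma was at 0.71 and 0.40 and Gzmc at -6.51 and -8.12, while Prf1 turned to -0.19 and -0.26 and Gzmb from 0.13 and 0.23 to -0.73 and -0.39. Leaving out 10 cells takes a far larger part of the 49 and 42 cells than of the 1058 and 978 without S1pr5. That pushes the ratios down by construction, so no conclusion is drawn from these shifts and turns of sign.

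Klrg1, an inhibitory lectin receptor of mature NK cells, marked cells rich in both groups. NK-gated cells with a Klrg1 UMI (169 and 134 cells) had Gzma at 7346 and 8853 CPM, with a log2 ratio of 1.06 and 1.01 over cells without. Their Gzmd was at 2132 and 3371 CPM, with a ratio of 2.44 and 2.58, and Gzme followed with 2.22 and 2.20. Without the 10 richest cells of each side the ratio for Gzmd was 1.73 and 2.03, while that for Gzmf turned to -0.68 in library 1 and was 1.12 in library 2. These 10 cells are a larger part of the 169 and 134 cells than of the 938 and 886 without Klrg1. That alone pushes the ratios down. At equal depth Gzma had a UMI in 94.0% and 96.1% of Klrg1 cells and 75.4% and 78.4% of the rest, and Gzmd in 27.1% and 36.4% against 12.3% and 13.0%. Cycling NK cells, those with 2 or more UMIs of Mki67 and Top2a, had less Gzma, by a log2 ratio of -0.56 and -0.26, and a Gzma UMI in 70.3% and 75.7% of thinned cells against 79.6% and 81.5%. They were deeper, with a median of 17074 and 15934 UMIs against 9569 and 8114. A UMI of a marker is more often caught in a deep cell. The other splits went differently. With Itgam the log2 ratios were -0.72 and -1.16 for Gzmc and -1.13 and -1.17 for Gzmd, so Gzmd ran against Klrg1. With Il7r (67 and 65 cells) they were 0.17 and -0.20 for Gzmc and -0.07 and -1.25 for Gzmd, unlike Itga1. With Cd27 they were -0.33 and -0.22, and -0.77 and -0.65. With Eomes they were -0.64 and -0.54, and 0.07 and 0.53.

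**Figure D4:**
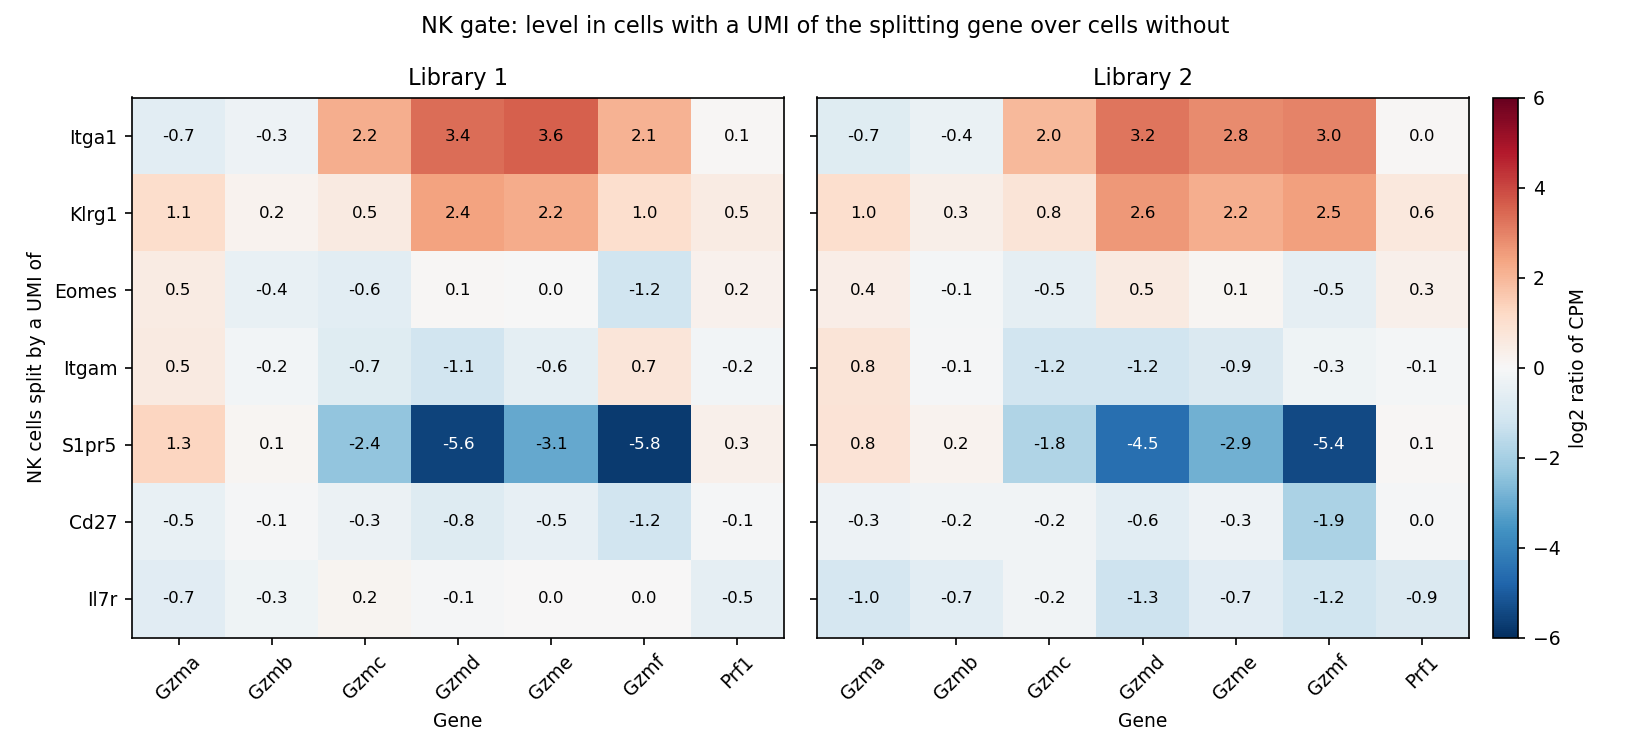
Log2 ratio of CPM in NK-gated cells with a UMI of the gene named at the left over NK-gated cells without it, for 7 of the genes (columns) in library 1 (left) and library 2 (right). The Itga1 row is positive for Gzmc to Gzmf and negative for Gzma, and the S1pr5 row is the reverse (1.30 and 0.84 for Gzma, -2.36 and -1.79 for Gzmc).

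CD8 T cells were split by Pdcd1, the PD-1 checkpoint receptor, with Havcr2, the TIM-3 receptor of terminally differentiated cells, or Tcf7, a transcription factor of their progenitors. Cells with Pdcd1 and Havcr2 UMIs (898 and 752) had Gzmb at 1716 and 2578 CPM, and those with Pdcd1 and Tcf7 but no Havcr2 UMI (75 and 66) at 645 and 696 CPM, or 1.41 and 1.89 on the log2 scale. Gzmf was at 1359 and 1370 CPM against 354 and 246 CPM, a ratio of 1.94 and 2.47. Prf1 was higher by 0.80 and 1.12. Gzmc ran the other way at first, with a ratio of -1.55 and -1.68. In the smaller set 2 cells of either library held 50% of the Gzmc UMIs. The ratio turned to 1.64 and 3.76 when cells with NK receptor UMIs were left out (868 and 714 against 61 and 58 cells). With those cells left out Gzmb stood at a ratio of 1.90 and 2.62, and Prf1 at 2.00 and 2.32. Gzmf then stood at 1.42 (1.27 to 1.59) and 7.60 (6.27 to 10.1). In library 2 a single cell had held 158 of the 161 Gzmf UMIs of the Pdcd1 and Tcf7 set, and in library 1 a single cell held 210 of 330. Cells without a Pdcd1 UMI (667 and 661 after the same step) had more Gzma than Pdcd1 and Havcr2 cells, at 386 and 388 CPM against 95.1 and 231 CPM.

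Between the libraries the set moved by gate and by gene. In NK cells all members but Gzmk had a ratio above 0, taken at any size. The share of all genes above 0 was not computed, and their median was 0.04. The log2 ratio of Gzmb was 0.36 (0.34 to 0.38), with Gzma at 0.29 (0.28 to 0.31), Gzmc at 0.24 (0.23 to 0.26) and Prf1 at 0.18 (0.14 to 0.21). Past 1.5 times were Gzme at 0.60 (0.53 to 0.66), Gzmg at 1.62 (1.46 to 1.78) and, lower, Gzmk at -0.80 (-1.78 to 0.08), on 34 and 16 UMIs. Of all 10778 genes with 50 or more UMIs in NK cells, 2.35% were higher and 3.53% lower past that fold. The median over the 9 genes was 0.36, beside 0.04 over all genes. Without the 10 richest cells of each library Gzmg fell to 0.65, Gzmf from 0.43 to 0.15 and Gzme to 0.56, while Gzmb stayed at 0.36 and Gzma at 0.30.

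Gzmk in CD8 T cells was higher in library 2 by a log2 ratio of 0.71 (0.60 to 0.83), and at 0.74 without the 10 richest cells and 0.68 without cells with NK receptor UMIs. It was the 1 member past 1.5 times upward, where 3.92% of 12130 genes were. Gzmb was at 0.55 (0.53 to 0.57), just under that fold, and at 0.57 without the cells with NK receptor UMIs. Gzmg was the 1 member past it downward, at -4.14, where 3.26% of genes were, and without the 10 richest cells it was at -0.30 (-1.11 to 0.46). The sign of Gzmd (-0.43), Gzme (-0.15) and Gzmf (-0.12) turned to 0.31, 0.23 and 0.24 without those cells. Prf1 stood at -0.02 (-0.06 to 0.02), an interval that holds 0. Without cells with NK receptor UMIs, Gzma was past 1.5 times upward at 0.72 and Gzmc downward at -0.72, where 3.84% and 3.22% of genes were. The median over the 9 genes, with all cells, was -0.02, beside 0.04 over all genes.

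In regulatory T cells Gzmb was higher in library 2 by a log2 ratio of 0.62 (0.57 to 0.67), and by 0.64 without the cells that carried NK receptor UMIs. All 6 other members with enough UMIs (Gzma, Gzmc, Gzmd, Gzme, Gzmf and Prf1) were lower past 1.5 times, from -0.91 for Prf1 to -4.08 for Gzmf, where 5.04% of all genes were higher and 4.01% lower. These 6 rested on few cells. A single regulatory T cell of library 1 held 383 of its 452 Gzmf UMIs, and the 25 cells with NK receptor UMIs held 86.0% of its Gzmc and 80.9% of its Gzma UMIs. Without such cells 5 members had enough UMIs. Gzma (-1.26), Gzmc (-1.38) and Gzmf (-1.32) were still lower past the fold and Prf1 was at -0.28 (-0.63 to 0.07), beside 4.91% of genes higher and 3.9% lower. At these levels (Gzma 48.0 and 19.8 CPM, Gzmc 78.9 and 30.2 CPM) the macrophage gate of the same libraries stood at 25.2 and 13.8 CPM for Gzma and 34.7 and 14.6 CPM for Gzmc, and its own ratios were -0.85 and -1.24. In macrophages 4 of the 6 members with enough UMIs were lower in library 2 and none higher past 1.5 times, where 3.06% of genes were higher and 4.62% lower. The part of free RNA in the regulatory T cell ratios was not tested.

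**Figure D5:**
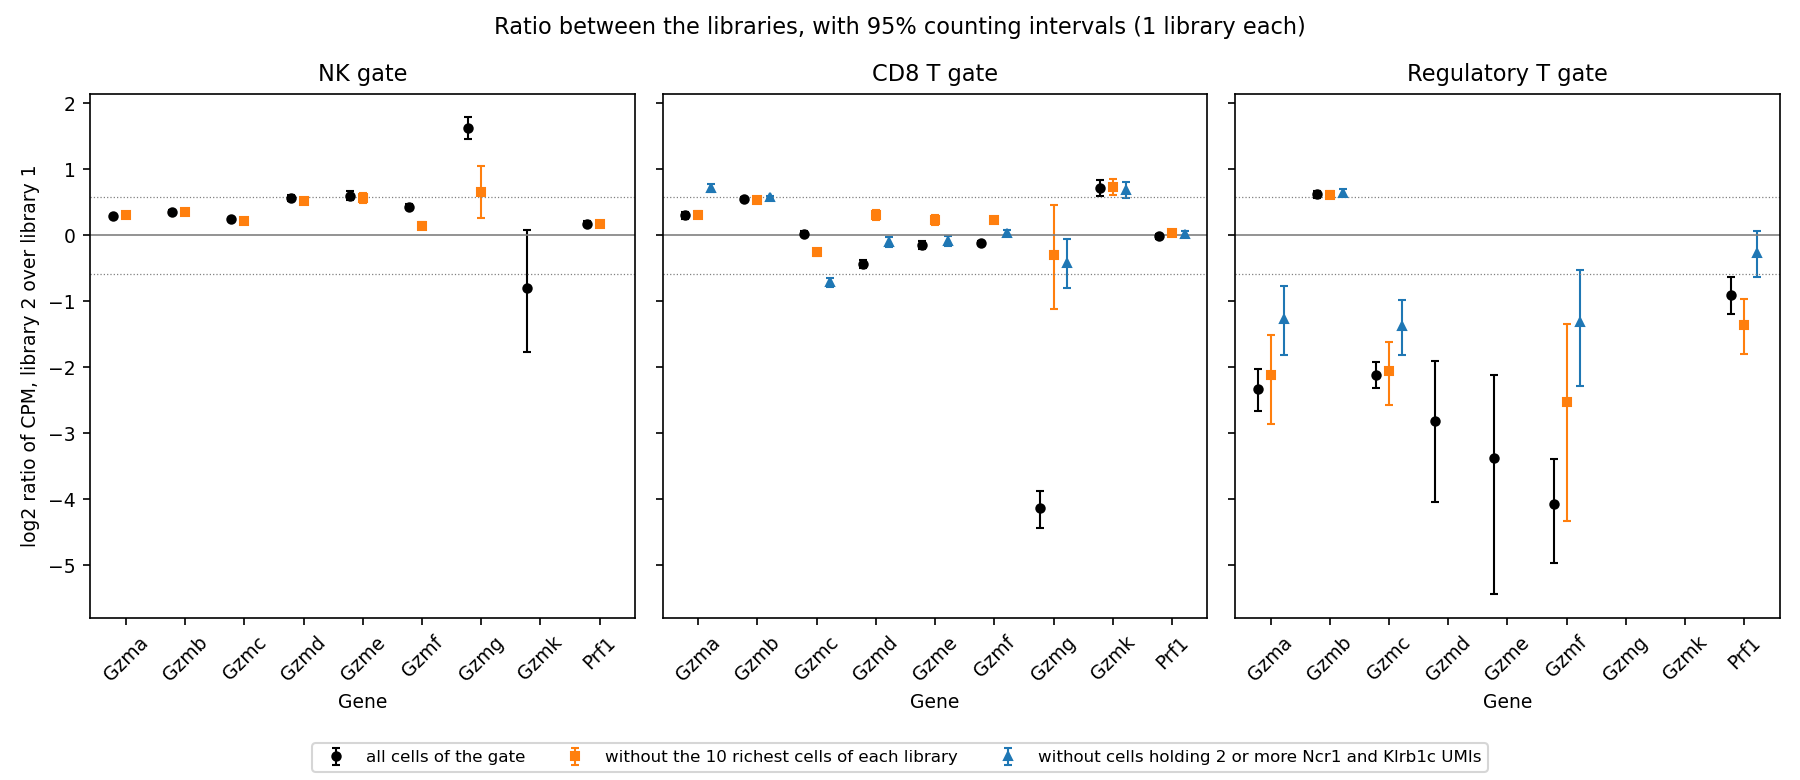
Log2 ratio of CPM, library 2 over library 1, with 95% counting intervals in NK, CD8 T and regulatory T gates, for all cells (black), without the 10 cells of each library richest in the gene (orange) and without cells with 2 or more NK receptor UMIs (blue, T cell gates). Dotted lines are 1.5 times, and sums under 50 UMIs or with an unbounded interval are not drawn. Gzmb in each gate and Gzmk in CD8 T cells keep their place under each, while Gzmg in CD8 T cells moves from -4.14 to -0.30.

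In the smaller T cell gates the ratios followed single cells. Conventional CD4 T cells (192 and 170) had 4 members higher and 2 lower past 1.5 times (5.19% and 5.23% of genes), and Gzmf, at 3.75, went to -0.34 without the 10 richest cells. Without cells with NK receptor UMIs none was higher and Gzma (-2.53) and Gzmc (-0.69) were lower, where 4.97% and 5.46% of genes were. The gamma-delta T gate had 2 higher and 1 lower (5.11% and 3.04% of genes), and its Gzmf, at 2.06, went to -1.51. Without cells with NK receptor UMIs Gzmb (0.61) was higher and Gzma (-1.85) lower, where 7.29% and 4.68% of genes were. The richest gamma-delta T cell of library 2 alone gave 1517 Gzmf UMIs, with 2 Cd3 and 22 NK receptor UMIs.

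A list of 25 genes that work with these proteases was read beside the members. It holds other granzymes, granule and exocytosis genes, serpin inhibitors, transcription factors and death ligands, and 24 had enough UMIs in NK and in CD8 T cells. None of the 24 passed 1.5 times between the libraries in NK cells, where 2.35% of all genes were higher and 3.53% lower. In CD8 T cells 1 did, Serpinb1a, an inhibitor of granule proteases, at 28.7 and 60.4 CPM (log2 ratio 1.07), where 3.92% of genes were higher. In regulatory T cells 3 of 21 were lower, Ctsw (cathepsin W, a granule protease, -1.32), Eomes (a T-box factor of NK and CD8 T cells, -1.87) and Fasl (the death ligand of Fas, -0.60), where 4.01% of genes were, and 1 of 20 (Ctsw, -0.77) was without cells with NK receptor UMIs. In macrophages 1 of 19 was higher (Stx11) and 4 lower (Nkg7, Serpinb9, Serpinb6b and Ctsw), where 3.06% and 4.62% of genes were. In the gamma-delta T gate 1 of 22 was higher (Serpinb1a) and 1 lower (Serpinb9b), where 5.11% and 3.04% of genes were. Without cells with NK receptor UMIs 4 of 14 were higher (Serpinb6b, Serpinb1a, Serpinb9 and Lyst), where 7.29% of genes were. Conventional CD4 T cells had 2 of 21 higher (Serpinb1a and Unc13d) and 1 lower (Ctsc), where 5.19% and 5.23% of genes were. Without cells with NK receptor UMIs 2 were higher and 3 lower, where 4.97% and 5.46% of genes were. Between NK and CD8 T cells, Serpinb9, the inhibitor of granzyme B, was higher in NK cells at 781 and 946 CPM against 296 and 388 CPM (log2 ratio 1.40 and 1.29). Serpinb6b (1.28 and 1.11) and Eomes (2.79 in either library) were also higher, and Tnfsf10, the death ligand TRAIL, was lower (-1.06 and -1.02). Lyst, a regulator of lysosome size, was past 2 times lower in library 1 (-1.31) and short of it in library 2 (-0.97). In all, 3 of 24 were higher and 2 lower in library 1, where 4.57% and 6.91% of all genes were. In library 2, 3 were higher and 1 lower, where 4.53% and 8.2% of all genes were.

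Over single NK cells, ranked among 6981 genes with a UMI in 10% or more of them, the closest genes to Gzmd were Gzme (r = 0.86 in library 1 and 0.91 in library 2) and Gzmc (0.53 and 0.56). The closest to Gzmc were Ifitm2 (0.56 and 0.66), Gm36723 (0.55 and 0.55), Gzmd, and Spp1 (0.52 and 0.59), the gene of osteopontin. The closest to Gzma were Ccl5, a chemokine gene (0.50 and 0.47), Nkg7, a granule membrane gene (0.38 and 0.42) and Prf1 (0.36 and 0.41). Ccl5 was also the gene most opposed to Gzmc (-0.50 and -0.58), and Ltb, the lymphotoxin beta gene, the most opposed to Gzma (-0.46 and -0.45). The closest to Gzmb and Prf1 were each other. These correlations are over 1107 and 1020 cells that share a library and differ in depth. Over the 13 gates of both libraries (26 points, which share libraries and free RNA), Gzmc was nearest to Samd3 (r = 0.969) and Klra7 (0.962), Gzma to Spry2 (0.959) and Klra4 (0.946), Gzmb to Gm19585 (0.962), Gzme to Gzmf (0.954) and Prf1 to Gzmc (0.946).

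Related sequences could let a read of one gene count for another. In the last 500 transcript bases, where 3′ reads fall, 7 of 411 windows of 90 bases (1.70%) were the same in Gzmd and Gzme, and no other member shared a window of that length with any gene. Those bases were 89.4% identical between Gzmd and Gzme and 54.9% to 58.2% identical between Gzmc and Gzmd to Gzmg. With 60-base windows, 13.6% of Gzmd, 11.6% of Gzme, 4.99% of Gzmf and 9.52% of Gzmg windows were found in another gene of the cluster. Gzmd to Gzmg UMIs are therefore less certain by gene than those of the other members. How many reads were assigned to a wrong member was not tested.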

How the data were processed

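The matrix the authors deposited gives a UMI count for each gene in each barcode, made with Cell Ranger 6.1.2 on mm10 from 10x 3′ libraries, per the submitters' processing notes. No column was left unmapped (0). A barcode was kept where 500 or more genes had a UMI and mitochondrial UMIs did not pass 10% (8066 and 6113; 456 and 366 left out). Kept cells were gated by marker UMIs without any member gene. No doublet caller was run; barcodes with T cell and macrophage transcripts form a gate of their own, and T cell gates were also read without cells with 2 or more Ncr1 and Klrb1c UMIs. Counts were summed by gate and library as CPM with exact Poisson intervals, shares with Clopper-Pearson intervals (95%), also in cells thinned to 3000 UMIs (567 and 456 shallower cells left out). Log2 ratios used a pseudocount of 0.5 UMI, an exact binomial interval and genes with 50 or more UMIs over both sums; past 1.5 times (libraries) or 2 times (gates) is a description, not a test. The ratio code was tested on simulated data. Genes named are the 9 members, the 25 related genes and, some of the 5 genes most alike each member by Pearson r, with the most opposed gene, picked from these ranks after their values were seen. The identity of proteins between members was not analysed here. The members and lists were chosen with earlier results of these data known. Alternatives covered the cell filter, gates, scaling, minimum, thinning and window length. Python 3.11.15, numpy 2.4.6, scipy 1.17.1, pandas 2.3.3 and matplotlib 3.10.9 were used.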

Additional observations from a re-analysis of the deposited data

Results flagged for a closer look

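Gzme, Gzmg and Gzmk passed 1.5 times between the libraries in opposite directions in different gates. As log2 of library 2 over library 1, the ratio was 0.60 in NK cells and -3.37 in regulatory T cells for Gzme, 1.62 in NK cells and -4.14 in CD8 T cells for Gzmg, and -0.80 in NK cells and 0.71 in CD8 T cells for Gzmk. The difference between gates was not tested, and there is 1 library of each kind. How many of all genes pass in opposite directions was not computed. In the regulatory T gate Gzme rested on 80 and 4 UMIs, and in the NK gate Gzmk on 34 and 16 UMIs. Cells with NK receptor UMIs held 81.25% of the Gzme UMIs of the regulatory T gate in library 1. In the NK gate Gzme fell short of 1.5 times without the 10 richest cells. For Gzmg, 1 CD8 T cell of library 1 held 2322 UMIs, and the CD8 T ratio was -0.30 without the 10 richest cells.

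Gzmb was also found outside the 13 gates described. In library 2 the basophil gate held 9 cells, and 4 of them had 151 Gzmb UMIs together, of which 133 lay in 1 cell. Library 1 had 0 cells in that gate.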

How the results depend on the processing

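Of 701 values recomputed under an alternative, 125 counts and shares kept their place and 49 moved by more than 1.5 times or beyond their counting interval, and of values of single genes 280 kept their place, 240 moved, and 7 that had been past the fold used (1.5 or 2 times) turned in sign. Counting values within that fold too, 46 turned in sign, among them Gzmd, Gzme, Gzmf, Gzmc and Prf1 between libraries in CD8 T cells, Gzmf in NK over CD8 T cells of library 1, Gzmb and Prf1 in the S1pr5 split, Gzmd and Gzmc of Pdcd1 and Havcr2 cells over cells without Pdcd1 in library 1 (2.74 and 1.52 without NK receptor UMIs) and Gzma and Gzmd over Pdcd1 and Tcf7 cells in library 2 (0.65 and 5.24). Depth limited Gzmk in NK cells (34 and 16 UMIs) and Gzme in regulatory T cells (80 and 4 UMIs). Of those past the fold, the sign turned for Gzmg in NK over CD8 T cells of library 1 (-1.59), to 2.30 with gates at 3 UMIs, 1.56 without cells with C1q UMIs, 2.52 without the deepest 5% of cells and 2.23 without T cells with NK receptor UMIs. It turned for Gzmc between Pdcd1 and Havcr2 cells and Pdcd1 and Tcf7 cells of the CD8 T gate (1.64 and 3.76 without cells with NK receptor UMIs) and for Gzmf in the Klrg1 split of NK cells of library 1 (-0.68 without the richest cells). In NK cells, 2 members were higher between libraries and 1 lower. The higher count was 1 without Cd3 UMIs, without the deepest cells, under both other scalings, with equal weight per cell, with thinned sums and without the 10 richest cells, and 4 without C1q UMIs. The lower count was 0 with gates at 3 UMIs, without Cd3 UMIs, without C1q UMIs, without the deepest cells, with equal weight, at a minimum of 200 UMIs, with thinned sums and without the richest cells. In CD8 T cells the higher count went from 1 to 2 without C1q UMIs or without NK receptor UMIs, and the lower count from 1 to 0 with gates at 3 UMIs, without the deepest or without the richest cells. In regulatory T cells the higher count went from 1 to 0 without C1q UMIs and under both scalings, and the lower count from 6 to 3 without C1q UMIs or without NK receptor UMIs. For NK over CD8 T cells in library 1 the lower count went from 2 to 1 with gates at 3 UMIs and without C1q UMIs, the deepest cells or NK receptor UMIs. The NK gate's share of member UMIs in library 1 (48.1%) was 47.2% with gates at 3 UMIs, 31.4% without Cd3 UMIs, 41.1% without C1q UMIs, 53.6% without the deepest cells and 59.2% without T cells with NK receptor UMIs. In library 2 (56.8%) these were 55.9%, 42.1%, 56.4%, 57.3% and 64.8%, and 57.2% under the stricter cell filter. The share of Gzmd cells with Gzme was 50.9% in CD8 T cells of library 1 with no thinning, 64.2% in NK cells of library 2 at 3 UMIs, and 77.2% and 83.9% in CD8 T cells at 10 UMIs without thinning. Shared windows rose to 13.6% (Gzmd), 11.6% (Gzme), 4.99% (Gzmf) and 9.52% (Gzmg) at 60 bases. Except where a setting removes cells by its own construction, the cause was not tested. The alternatives on richest cells, NK receptor UMIs, 3 UMIs and 10 UMIs were chosen after seeing the data. Leaving out the richest cells of each side weighs more on the smaller side of the S1pr5 and Klrg1 splits, by construction. In the Itga1 split it weighs more on the cells without Itga1, where fewer cells hold the Gzmc and Gzmd UMIs. No paired analysis was possible because there is 1 library of each kind and no test.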
